A study of Rattus norvegicus with 16 samples.

Results

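Untreated rats that carried the Pirc allele of Apc were compared with untreated rats that did not, in normal distal colon. These are the samples labelled as control treatment, 8 of the 16 arrays of the series: 4 rats of genotype Pirc/+ (rats 11, 15, 19 and 23) and 4 of genotype Apc wild type (rats 13, 17, 21 and 25), here called Pirc and wildtype rats. All were male, 97 days old, and F1 offspring of ACI mothers and F344 fathers, and the labels give the strain as (ACIxF344)F1-Pirc for both genotypes. The other 8 rats, 4 of each genotype, had drunk 4% dextran sodium sulfate (DSS), which injures the colonic epithelium, in 2 spells (days 40 to 47, then days 54 to 61), and were of the same age when sampled. Total RNA of each rat was hybridised with the dye Cy3 to a single-colour Agilent array, and a level below is the log2 signal of a probe minus that of the 75th percentile of its array. The labels do not say whether the colons of these rats bore tumours.

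APC is the scaffold of the complex that marks beta-catenin for degradation and so restrains Wnt signalling in the crypt. The Pirc allele carries a nonsense mutation in Apc, and heterozygous rats develop adenomas of the colon. The colonic epithelium itself holds absorptive colonocytes, goblet cells, enteroendocrine cells and stem cells, and it keeps bacteria at a distance with mucus, reactive oxygen and antimicrobial proteins. In the small intestine, Paneth cells at the crypt base release alpha-defensins and secretory phospholipase, whereas the healthy distal colon has few such cells.

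The tissue carried the markers of its label. All 16 measured markers of distal colon epithelium, among them Cdx2, Hoxb13, Krt20 and Epcam, were well above background on all 8 arrays, and 3 of them, Hoxd13, Hoxb13 and Guca2a, were lower in Pirc rats without overlap. Of 5 measured markers of small intestine 4 were well above background on all 8 arrays too, and the fifth, Gata4, on 0. Also well above background on all 8 arrays were 5 of 6 squamous or urothelial markers and 3 of 4 of smooth muscle wall. So were 2 of 4 of stomach, 2 of 2 of adipocytes and 3 of 3 of red blood cells. Detection was therefore not particular to markers of distal colon. The 75th percentile of the signal ran from 1063 (rat 23) to 2194 in Pirc and from 1248 to 1433 in wildtype rats, and the share of spots well above background was 71.1% to 78.1%. Each of the 2 slides held 2 rats of each genotype, but each genotype lay in 1 array column, so column and genotype cannot be told apart. Between the slides 881 probes passed the adjusted threshold. Over the probes well above background on all 8 arrays, the median SD between rats was 0.22 in Pirc and 0.18 in wildtype rats, with rat 23 farthest from its own group. The number of arrays limits the precision.

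Apc itself did not separate the genotypes in untreated rats. In Pirc rats 11, 15, 19 and 23, in that order, its level was -3.09, -3.40, -3.12 and -3.30. In wildtype rats 13, 17, 21 and 25 it was -3.39, -3.35, -2.94 and -3.32. The groups overlapped, and the difference of 0.02 had a standard error (SE) of 0.15 (adjusted p = 0.975, limma) and a sign that changed with the scaling (-0.0042 when scaled to the median of the brighter probes, -0.0407 under normexp). A transcript level does not report a nonsense mutation, so this does not check the genotype. Below, values of single rats always follow this order of rat numbers.

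No probe passed the test between the genotypes. With limma and Benjamini-Hochberg adjustment over all 30367 probes, 0 (0.0%) had an adjusted p of 0.05 or less. The smallest adjusted p was 0.169, while 3103 probes (10.2%) had an unadjusted p under 0.05. The genotypes were therefore described by separation: a probe is without overlap when all 4 Pirc rats lie on one side of all 4 wildtype rats. All Pirc rats were higher for 1425 probes (4.69%) and lower for 1222 (4.02%). Where the means also differed 2-fold or more, 151 probes (0.497%) were higher and 73 (0.24%) lower. These larger differences were mostly of dim probes where they were higher: 50 of the 151 and 45 of the 73 were well above background on all 8 arrays, and 72 and 10 were below it on every array of one genotype. Under another background correction (normexp) 23 and 24 probes met the rule, a common floor for dim signals gave 59 and 48, a filter on dim probes 88 and 63, and scaling to the median of the brighter probes gave 1147 probes without overlap higher and 1505 lower, at any size. Fitted without the DSS-treated arrays, 3 probes passed, those of Cxcl2 (adjusted p = 0.000697), Defal1 and Krt6c (adjusted p = 0.039 each, limma). In bulk tissue, fewer cells of a type and less RNA per cell cannot be told apart.

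**Figure D1:**
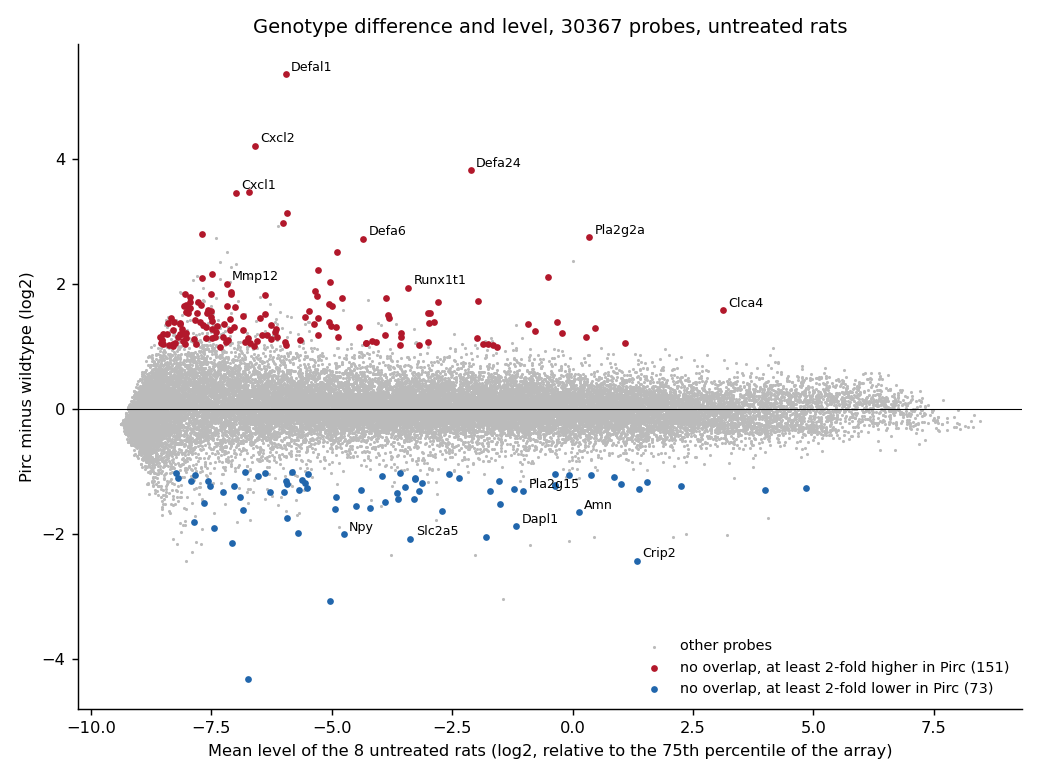
Difference between Pirc and wildtype rats (log2) against the mean level of the 8 untreated rats (log2, relative to the 75th percentile of each array), 1 point a probe. The 151 probes without overlap that were at least 2-fold higher in Pirc rats (red) lie mostly at low levels, and the 73 that were lower (blue) reach higher levels.

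The genes with the largest differences among those well above background on all 8 arrays fell into a few kinds. Of the 12 largest that were higher in Pirc rats, Defa24, Defa6 and Pla2g2a encode antimicrobial proteins, Duoxa2 the partner that brings the oxidase DUOX2 to the cell surface, and Il1b and Tnf cytokines. Krt6c, Lgals7 and Csta are genes of stratified epithelia. Runx1t1, Clca4 and Zc3h12a complete the list. Their log2 differences ran from 1.55 (Zc3h12a) to 3.83 (Defa24). The 12 largest that were lower were Crip2, Slc2a5, Npy, Dapl1, Amn, Mmp17, Fgf9, Susd3, Myh11, Slc51a, Pla2g15 and Prkch, from -2.43 (Crip2) to -1.32 (Prkch). Outside these, 20 of all 30367 probes were well above background in all 4 Pirc rats and in no wildtype rat, against 2 the other way round. Of these, 15 and 0 had a gene name, with Defal1, Cxcl2, Cxcl1, Mmp12 and Il1a the 5 named here. Detection also depends on the brightness of an array, and the 75th percentile reached 2194 in Pirc and 1433 in wildtype rats. The part of brightness in these counts was not tested.

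**Figure D2:**
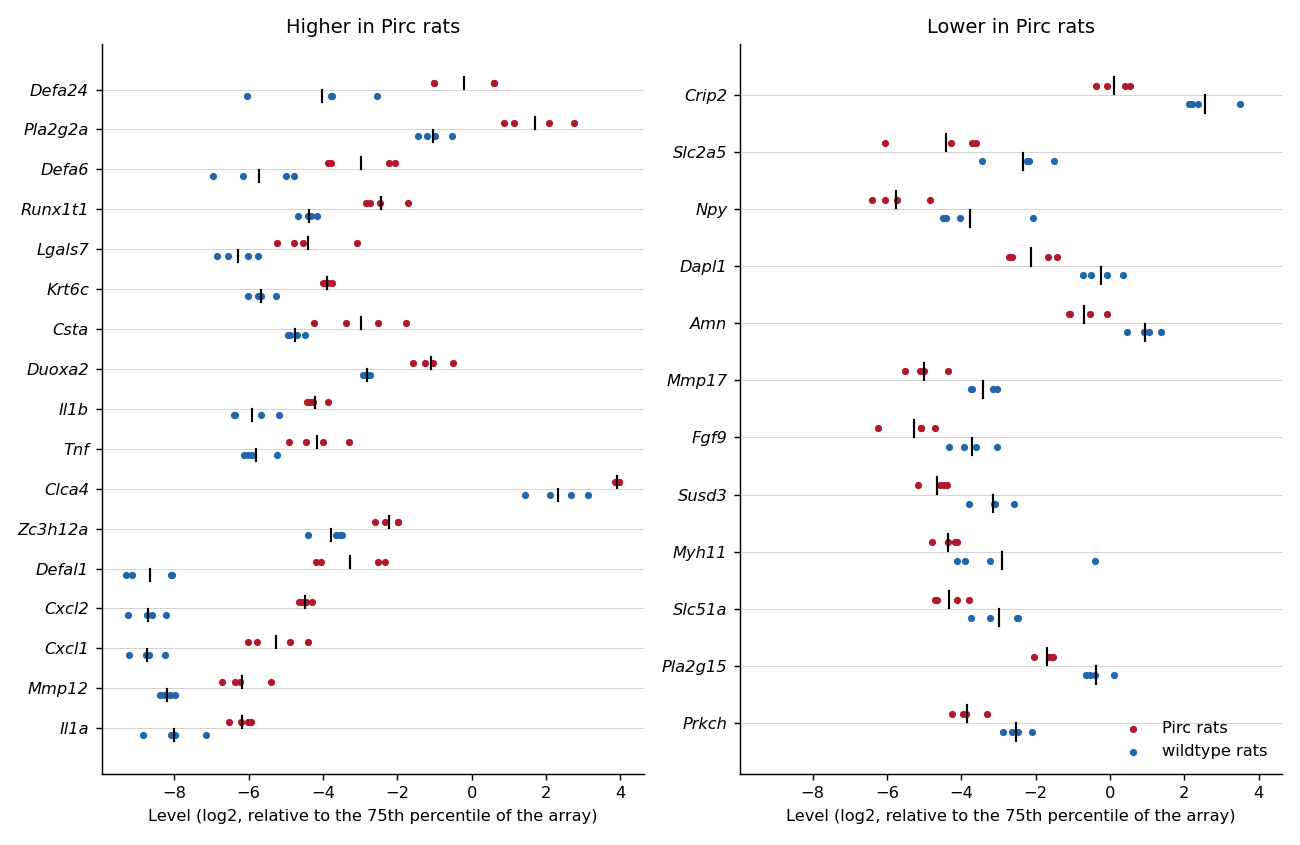
Level (log2, relative to the 75th percentile of the array) of the named genes in each untreated rat, 1 point a rat, with the mean of the 4 rats as a black bar. Pirc rats (red) and wildtype rats (blue) do not overlap for any gene shown, since absence of overlap or detection in 1 genotype alone chose them. Defal1, Cxcl2, Cxcl1, Mmp12 and Il1a were not well above background in wildtype rats.

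Genes of epithelial defence included Defa24, Pla2g2a and Defa6, the 3 largest differences upward among genes without overlap that were well above background on all 8 arrays. Alpha-defensins are small peptides that disrupt bacterial membranes. Defa24 had levels of -1.0, 0.61, -1.02 and 0.61 in Pirc and of -6.04, -2.54, -3.77 and -3.75 in wildtype rats. Its lowest Pirc rat lay 1.52 above the highest wildtype rat, and the difference was 3.83 (SE 1.14, adjusted p = 0.273, limma). Defa6 had -3.87, -2.05, -3.78 and -2.23 against -6.95, -4.98, -6.14 and -4.77, a difference of 2.73 (SE 0.93). In both genotypes the spread was wide. For both genes the rats of array row 2 (Pirc rats 15 and 23, wildtype rats 17 and 25) were above those of row 1 within each genotype. Defal1, an alpha-defensin-like gene, had -4.20, -2.34, -4.05 and -2.52 against -9.29, -8.05, -9.15 and -8.08. It was not well above background in any wildtype rat, so only a bound is given: it was at least 12.4-fold higher in Pirc rats. For this, the mean of the Pirc rats was set against the lowest spot signal well above background on each wildtype array. Where the probe's own value was higher, that value was used. Such bounds, here and below, hold only for the background subtraction of the deposited signals. Under normexp the Defal1 difference was 1.78 (log2). Defa8, Defa9 and RatNP-3b, also well above background on all 8 arrays, differed by 1.10, 1.14 and 1.09, with groups that overlapped. The family is made of close copies whose probes may cross-hybridise, so the members are uncertain as separate measurements.

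Pla2g2a encodes a secreted phospholipase A2 that kills Gram-positive bacteria, and in mice the gene is known as a modifier of Min tumour number. Its level was 1.13, 0.88, 2.77 and 2.10 in Pirc rats and -0.54, -1.44, -0.98 and -1.19 in wildtype rats. Every Pirc rat thus lay at least 1.41 above every wildtype rat. The difference of 2.76 (SE 0.40) had the smallest p of all probes, with an adjusted p of 0.169 (limma), and was 1.99 on slide 1 and 3.52 on slide 2. It was one of 17 probes that passed under normexp (difference 2.65, adjusted p = 0.047, limma). Mmp7, a protease that activates alpha-defensins in mouse Paneth cells, was at -3.50, -3.10, -3.0 and -2.74 in Pirc and at -4.61, -3.87, -5.34 and -4.36 in wildtype rats, again without overlap, a difference of 1.46 (SE 0.47). In the list of alpha-defensins and Paneth cell genes, 4 of 13 measured genes were higher without overlap and 0 lower, and the median difference was 1.09, beside -0.02 over all 15159 genes measured. Over all genes, 739 (4.87%) were higher without overlap and 760 (5.01%) lower, with 1 probe taken for each gene, and the shares of the lists below are to be read against these.

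Dual oxidases release hydrogen peroxide into the lumen, and DUOX2 with its partner DUOXA2 is expressed in the gut. Duoxa2 was at -0.49, -1.56, -1.05 and -1.26 in Pirc rats and at -2.82, -2.81, -2.92 and -2.74 in wildtype rats. The wildtype rats lay close together, below all Pirc rats, and the difference was 1.73 (SE 0.33, adjusted p = 0.177, limma). Duox2, the oxidase itself and one of the brighter genes, had 4.72, 4.29, 4.83 and 4.68 against 3.88, 3.61, 3.91 and 4.16, a difference of 0.74 (SE 0.24). Both were without overlap, and they were the 2 of 9 measured genes of the oxidase list that separated, 8 of the 9 being higher in mean, and Nos2, the inducible nitric oxide synthase, differed by 0.14. Of 19 antimicrobial proteins, 3 were higher without overlap and 0 lower, with a median difference of 0.00. They were S100a8 and S100a9, the chains of calprotectin, which withholds metal ions from bacteria, and Pigr, the carrier of IgA across the epithelium. S100a9 was at -0.52, -0.39, -0.53 and 0.41 against -1.37, -1.62, -2.32 and -1.15, a difference of 1.36 (SE 0.48).

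Chemokines that draw neutrophils gave the second group of large differences. CXCL1 and CXCL2 bind the receptor CXCR2 on neutrophils and are made within hours of an NF-kappaB signal. Cxcl2 was at -4.28, -4.47, -4.64 and -4.56 in Pirc rats and at -8.61, -8.22, -9.25 and -8.73 in wildtype rats. It was well above background in all 4 of the former and none of the latter, and was at least 5.38-fold higher in Pirc rats (adjusted p = 0.256, limma). Cxcl1 was at -4.89, -6.01, -5.77 and -4.39 against -9.23, -8.76, -8.26 and -8.68, at least 3.14-fold higher (adjusted p = 0.177, limma). For both genes the 4 Pirc rats lay far above the 4 wildtype rats. Cxcl6 was well above background in 2 Pirc rats only. These were the 3 of 7 measured genes of the list that separated, all higher, and none of the 3 was well above background in a wildtype rat. Of the 7, 4 were higher and 3 lower in mean, with a median of 0.14. Only 1 of the 7 was well above background on all 8 arrays. The differences of such dim probes depend on the background: under normexp they were 1.07 for Cxcl2, 0.72 for Cxcl1, 0.35 for Mmp12, 0.23 for Il1a and 1.78 for Defal1.

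The promoters of both chemokine genes are shown because they share an NF-kappaB motif, and with them those of Csta, which holds a TCF/LEF motif, and Pla2g2a, which holds neither. Both chemokine genes were chosen for this after their values were seen. The sequences are from RefSeq, build GRCr8, 5′ to 3′ on the strand of the gene, and cover the 250 bases before the annotated start. Capitals mark the NF-kappaB consensus in the chemokine genes and CTTTGA, the core TCF/LEF motif, in Csta, each searched on both strands.
Cxcl2, chr14:17467256-17467505, minus strand: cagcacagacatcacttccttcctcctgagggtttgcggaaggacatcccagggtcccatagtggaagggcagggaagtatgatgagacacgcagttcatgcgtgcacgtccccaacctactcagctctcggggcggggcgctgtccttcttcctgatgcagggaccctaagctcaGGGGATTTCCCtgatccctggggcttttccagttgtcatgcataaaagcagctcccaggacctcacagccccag
Cxcl1, chr14:17479322-17479571, minus strand: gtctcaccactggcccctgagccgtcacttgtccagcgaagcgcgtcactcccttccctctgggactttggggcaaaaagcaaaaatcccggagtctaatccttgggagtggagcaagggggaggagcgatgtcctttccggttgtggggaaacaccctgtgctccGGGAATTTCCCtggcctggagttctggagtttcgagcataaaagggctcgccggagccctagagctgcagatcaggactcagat
Csta, chr11:78125563-78125812, plus strand: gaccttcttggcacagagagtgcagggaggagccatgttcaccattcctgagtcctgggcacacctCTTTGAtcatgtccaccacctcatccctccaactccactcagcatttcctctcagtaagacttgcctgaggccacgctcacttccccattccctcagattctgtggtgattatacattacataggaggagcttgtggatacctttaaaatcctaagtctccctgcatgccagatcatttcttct
Pla2g2a, chr5:156359475-156359724, plus strand: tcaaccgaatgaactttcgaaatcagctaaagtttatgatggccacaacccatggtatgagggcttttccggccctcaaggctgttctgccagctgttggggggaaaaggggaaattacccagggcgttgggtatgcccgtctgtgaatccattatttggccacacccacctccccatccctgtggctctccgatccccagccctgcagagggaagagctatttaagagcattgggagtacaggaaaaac
In Cxcl2 the capitals run from base -74 to base -64 before the start and in Cxcl1 from base -84 to base -74. Each run holds 2 overlapping matches.

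The same motifs were counted in the window of 300 bases around each start (250 before, 50 after) for the genes without overlap and at least 2-fold different. The NF-kappaB consensus was in 9 of 64 promoters of genes higher in Pirc rats (14.1%), in 2 of 36 of those lower (5.56%) and in 4.58% of the promoters of all 12389 measured genes with a sequence. The 9 genes were Cxcl1, Cxcl2, Cxcl6, Ccl20, Tlr2, Ptx3, Ubd, Ankk1 and MGC116197. CTTTGA was in 23.4% of the promoters of genes higher, 11.1% of those lower and 13.9% of all. The AP-1 motif TGANTCA was in 14.1%, 5.56% and 6.30% in the same order, and the cAMP response element TGACGTCA in 4.69%, 2.78% and 2.57%. A match describes the letters of the window and not binding.

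The cytokines upstream of these chemokines were low but separated. Il1b, the main inflammasome cytokine, was at -4.26, -4.34, -4.42 and -3.86 in Pirc rats and at -5.67, -6.37, -6.41 and -5.19 in wildtype rats, a difference of 1.69 (SE 0.89, adjusted p = 0.548, limma). Tnf was at -3.99, -4.91, -4.45 and -3.30 against -5.22, -5.90, -6.11 and -6.01, a difference of 1.65 (SE 0.52). Neither gene had a Pirc rat among the wildtype rats, but under normexp the differences were 0.69 and 0.77. Il1a, released by damaged epithelium, had 2 probes, both higher without overlap. The dimmer was at least 1.64-fold higher, and the other differed by 2.23 (SE 0.76) but was well above background in only 2 wildtype rats. Of the interleukin 1 family, 3 of 14 measured genes separated, all higher, the third being the decoy receptor Il1r2 (1.36), while the median of the family was -0.01. Zc3h12a encodes regnase-1, a ribonuclease that destroys cytokine mRNAs. It was at -1.99, -2.60, -1.97 and -2.33 against -3.55, -3.48, -3.64 and -4.41, a difference of 1.55 (SE 0.32). Among 15 measured genes of TNF signalling and NF-kappaB feedback, Tnf, Tifa (0.61) and Nfkb2 (0.50) were higher without overlap and 0 were lower, with a median of 0.28.

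Other genes of inflammation leaned the same way in some lists and not in others. Of 32 measured genes for other chemokines and their receptors, 8 were higher and 1 lower without overlap, with a median of 0.25. Ccl20, which draws CCR6-bearing lymphocytes and dendritic cells to the epithelium, was at 0.62, 0.16, 0.35 and 0.47 in Pirc rats and at -1.51, -0.55, -0.66 and -0.57 in wildtype rats, a difference of 1.22 (SE 0.37). The others that were higher were Ccl4, Ccl5, Ccl6, Cxcl11, Cxcl13, Cxcl14 and Cxcr3, and Ccl24 was lower. Of 21 Toll-like and NOD receptor genes, Tlr2 (1.04), Ly96 (0.50) and Irak1 (0.30) were higher and Myd88 (-0.20) lower. Of 30 interferon-stimulated and class I genes, Ifit3, Gbp2 (1.10) and Rsad2 (1.22) were higher and Stat2 (-0.31) lower, with a median of -0.02. For interleukin 6 and STAT3 genes 1 of 19 was higher (Il6r) and 1 lower (Il22ra1), for complement 1 of 18 was higher (Serping1), and for MHC class II 0 of 13 separated.

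Markers of immune cells were examined because whole tissue holds them too. Of 23 macrophage and monocyte genes, 7 were higher without overlap and 0 lower, 20 were higher in mean, and the median difference was 0.38. Aif1 (0.81), C1qc (0.80), C1qb (0.56), Tyrobp (0.63) and Fcer1g (0.84) were among them, with Msr1 and Ncf4, whereas the defining markers Cd68 and Csf1r, well above background on all 8 arrays, differed by 0.20 and 0.07. The mean level of the list lay between -4.60 and -4.43 in Pirc rats and between -4.97 and -4.70 in wildtype rats. Of 14 neutrophil genes, S100a8 and S100a9 alone separated, and Csf3r and Fpr1 differed by 0.17 and 0.26. For T and natural killer cells 3 of 29 were higher (Cd7, Icos and Il2rb), of which Cd7 was at -1.02, -1.12, -1.89 and -1.31 against -2.23, -2.47, -2.12 and -2.73. Cd2 was well above background in no rat, and Cd3d differed by -0.12. Chosen after their values were seen, and outside the list but for Gzmb, were 5 granzyme genes and 4 genes of lectin-like natural killer cell receptors. Granzymes are proteases of cytotoxic cells. These 9 genes had probes without overlap whose means were at least 2-fold higher, a rule met by 151 of all 30367 probes (0.497%). The other measured members of both families were not counted. In the list itself no granzyme or lectin-like receptor gene separated, and Gzmb was counted there by a probe that overlapped. Gzmc (1.40), Gzmb (1.31) and Gzmfl1 (1.32) were well above background in all 8 rats, and Gzmn (1.83), Gzmf (1.32) and Klri1 (1.13) in fewer. Klrb1a was well above background in no wildtype rat and was at least 1.64-fold higher, while Klre1 and Klrb1c reached that level in 1 Pirc rat only. Other probes of Gzmb (0.96) and Gzmc (1.30 and 0.42) overlapped, and both families hold close copies. None of the 9 passed in the DSS-treated rats. Of B and plasma cell genes 1 of 15 (Prdm1) was higher, and of mast cell and eosinophil genes 0 of 17 separated. The part of these cells in the differences of the cytokines and chemokines was not tested.

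**Figure D3:**
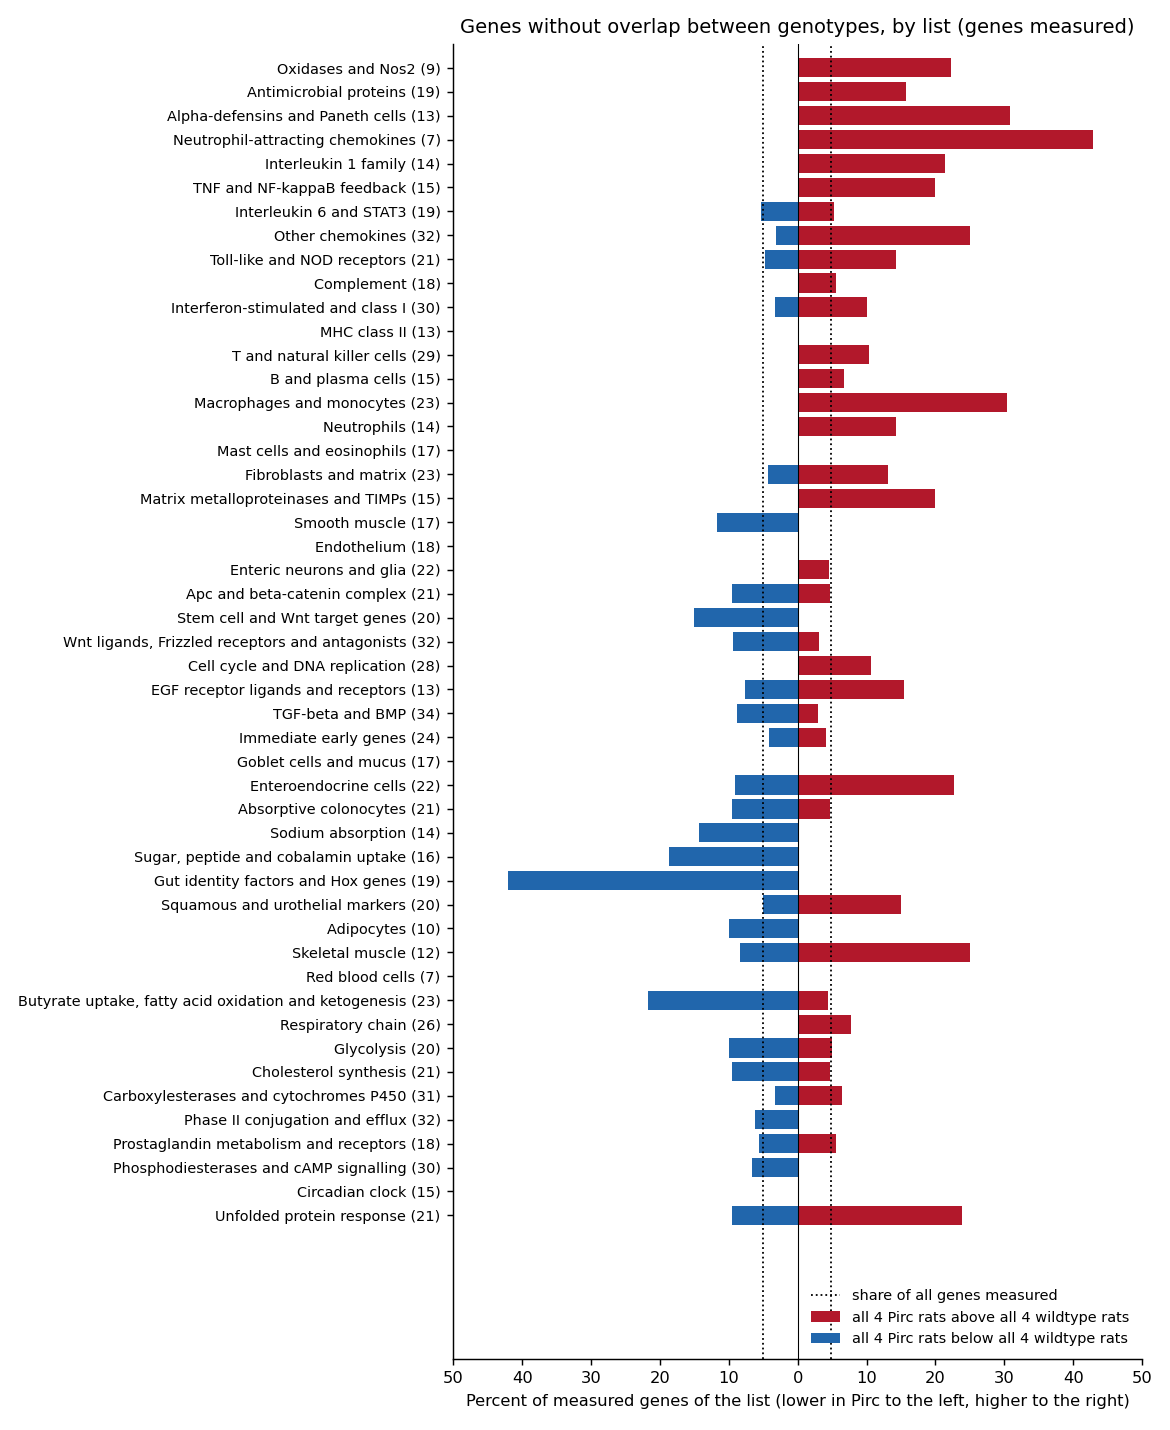
Percent of the measured genes of each list for which all 4 Pirc rats lay above (red, to the right) or below (blue, to the left) all 4 wildtype rats. The number of genes measured is in brackets, and dotted lines give the shares over all genes (4.87% and 5.01%). Neutrophil-attracting chemokines reach 42.9% on the right, by 3 genes that were not well above background in any wildtype rat. Gut identity factors with Hox genes reach 42.1% on the left.

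Genes of stratified epithelium stood out by single members. Krt6c, a keratin of injured and stratified epithelium, was at -3.95, -3.87, -3.74 and -4.0 in Pirc rats and at -5.26, -5.68, -5.75 and -6.0 in wildtype rats, a difference of 1.78 (SE 1.29 with all arrays in the fit, adjusted p = 0.685, limma). Its SE was 0.17 when the untreated arrays were fitted alone. The other probes of Krt6c differed by 1.46 and 1.03, the latter with overlap. Lgals7, galectin-7, was at -3.08, -5.22, -4.52 and -4.79 against -6.02, -6.56, -6.86 and -5.74. Csta, the protease inhibitor cystatin A, was at -1.77, -4.24, -3.37 and -2.52 against -4.69, -4.95, -4.48 and -4.90, with a gap of 0.24 between the groups. Of the 20 squamous and urothelial genes measured, 3 were higher (Krt6c, Sprr3 and Krt17, the last below background in every rat) and 1 lower (Tp63), with a median of 0.02, and the markers Krt5 and Krt4 differed by -0.02 and -0.07. Tp63 had 2 probes that differed in sign.

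Matrix proteases and stromal genes were higher in part. Mmp12, the macrophage elastase, was at -6.71, -6.37, -5.41 and -6.24 in Pirc rats and was not well above background in wildtype rats, so that it was at least 1.66-fold higher. With Mmp7 and Mmp2 (1.08) it made 3 of 15 metalloproteinase and TIMP genes of the list that were higher, 0 being lower. Mmp17, a metalloproteinase that the list left out, was lower without overlap (-1.59). A second, dimmer probe of Mmp17 differed by -0.54, with overlap. Of 23 fibroblast and matrix genes, Col5a1 (0.82), Col6a2 (0.69) and Fap were higher and Fbln1 (-0.60) lower, with a median of 0.30. Of 18 endothelial genes 0 separated, and of 22 genes of enteric neurons and glia Tac1, the substance P precursor, was the one that did. Tac1 was at -4.61, -5.09, -4.56 and -4.53 against -6.12, -6.37, -5.98 and -6.59, a difference of 1.57 (SE 0.26), and was well above background in 3 of the wildtype rats.

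Among the genes that were lower in Pirc rats, the posterior Hox genes and gut transcription factors formed the list with the largest share. Hox genes of the D cluster and Hoxb13 give the hindgut its position along the body axis. Of 19 measured genes of the list, 8 were lower without overlap and 0 higher: Hoxb13 (-0.51), Hoxd9 (-0.56), Hoxd10 (-0.55), Hoxd12 (-0.53), Hoxd13 (-0.61), Hnf4a (-0.49), Klf5 (-0.41) and Foxa2 (-0.44). Hoxd13 was at 0.99, 0.89, 0.99 and 1.18 in Pirc rats and at 1.52, 1.66, 1.75 and 1.58 in wildtype rats. Hoxd9 was at -0.28, -0.17, 0.01 and -0.03 against 0.37, 0.70, 0.49 and 0.22. The differences were under a factor of 2, and the mean level of the whole list lay between -1.28 and -1.21 in Pirc and between -1.03 and -0.96 in wildtype rats. Cdx2, which also specifies the colon, differed by -0.10, with overlap. The median of the list was -0.26.

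Butyrate, made by bacteria, is the main fuel of the colonocyte. Of 23 genes for its uptake, fatty acid oxidation and ketogenesis, 5 were lower without overlap and 1 was higher, with a median of -0.18. Slc16a1, the butyrate transporter MCT1, was at 1.05, 0.76, 0.83 and 0.81 in Pirc rats and at 1.33, 1.53, 1.69 and 1.42 in wildtype rats, a difference of -0.63 (SE 0.15). The oxidation enzymes Acaa2 (-0.33), Hadha (-0.29), Acadvl (-0.21) and Acadm (-0.20) were lower and Acat1 (0.23) higher. The mean level of the list lay between 0.66 and 0.75 in Pirc and between 0.85 and 0.94 in wildtype rats. The respiratory chain had 2 of 26 genes higher (Uqcrc2 and Atp5f1c) and 0 lower.

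Among transport genes of the absorptive cell, Slc2a5, Amn, Slc15a1 and Slc51a were lower without overlap. Slc2a5, the fructose transporter GLUT5, was at -3.61, -4.27, -6.04 and -3.71 in Pirc rats and at -2.17, -1.51, -2.22 and -3.43 in wildtype rats, a difference of -2.08 (SE 0.66, adjusted p = 0.311, limma). The gap between its groups was 0.18. Amn, the membrane anchor of the receptor for intrinsic factor and cobalamin, was at -0.07, -0.53, -1.07 and -1.10 against 0.46, 1.06, 1.38 and 0.93, a difference of -1.65 (SE 0.49). Slc15a1, the peptide transporter PEPT1, was the third of 16 genes of this list to be lower without overlap (-0.74), and 0 were higher, with a median of -0.11. Slc51a, a subunit of the basolateral bile acid exporter, was at -4.10, -4.71, -3.80 and -4.66 against -3.73, -2.49, -2.47 and -3.23, with a gap of 0.06. Among 21 genes of absorptive colonocytes, Slc51a and Guca2a (-0.49), the precursor of guanylin, were lower, and Clca4 was higher. Clca4 was at 3.96, 3.89, 3.86 and 3.98 in Pirc rats, close together, and at 3.12, 2.12, 2.68 and 1.44 in wildtype rats. Of 14 genes of sodium absorption, Tsc22d3 (-0.81), a glucocorticoid-induced gene, and Atp1b1 (-0.30), a sodium pump subunit, were lower, and 12 of the 14 were lower in mean.

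The remaining genes of the largest lower differences have no common role. Outside the rule for named genes, Retnla, a resistin-like protein, was well above background in 3 wildtype rats and 0 Pirc rats. It was at least 5.94-fold lower in Pirc rats (adjusted p = 0.326, limma), without overlap. Crip2, a LIM domain protein, was at 0.53, 0.40, -0.09 and -0.37 in Pirc rats and at 2.38, 3.49, 2.20 and 2.12 in wildtype rats. Its difference of -2.43 (SE 0.45, adjusted p = 0.177, limma) came with a gap of 1.60, and a second probe gave -2.05. Npy, neuropeptide Y, was at -4.85, -6.04, -6.39 and -5.74 against -4.50, -4.42, -4.03 and -2.06, and its difference was -0.98 on slide 1 and -3.02 on slide 2. Fgf9, a growth factor, was at -4.70, -5.09, -6.25 and -5.08 against -3.93, -3.04, -3.60 and -4.32. Pla2g15, the lysosomal phospholipase A2, was at -1.53, -1.55, -2.03 and -1.64 against -0.41, 0.11, -0.53 and -0.66, and Prkch, protein kinase C eta, at -3.86, -3.31, -4.25 and -3.94 against -2.88, -2.09, -2.48 and -2.64. In none of these 5 genes did the groups overlap. Dapl1, Mmp17 and Susd3 differed by -1.87 (SE 0.59), -1.59 (SE 0.45) and -1.49 (SE 0.28). Runx1t1, a transcriptional corepressor and one of the genes that were higher, was at -2.46, -2.74, -1.71 and -2.85 against -4.39, -4.67, -4.32 and -4.15, a difference of 1.94 (SE 0.33).

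Genes of smooth muscle and blood were lower in mean in Pirc rats, and 1 wildtype rat stood apart in both. Of 17 smooth muscle genes 0 were higher in mean, the median difference was -0.46, and Myh11 and Acta2 were lower without overlap. Myh11, the smooth muscle myosin, was at -4.17, -4.77, -4.11 and -4.35 in Pirc rats and at -4.11, -3.91, -3.23 and -0.41 in wildtype rats, with a gap of 0.0006. The mean level of the list was -2.06 in wildtype rat 25 and between -4.02 and -3.45 in the other 7 rats, and Cnn1 was well above background in 1 wildtype rat and 0 Pirc rats. Without rat 25 the median of the list was -0.31. Red blood cell genes were lower for all 7 measured of the list, with a median of -1.56 (-1.06 without rat 25) and 0 without overlap. Hba-a3, a globin gene outside the list, was lower without overlap (-1.98), and was well above background in 4 wildtype rats and 1 Pirc rat. Hbb was at 3.46, 1.04, 1.22 and 3.11 against 3.5, 3.37, 3.90 and 6.10, so wildtype rat 25 was again the highest. Adipocyte genes had 1 of 10 lower (Pnpla2), and skeletal muscle genes 3 of 12 higher and 1 lower, Myh4 and Myh7 being well above background in no wildtype rat. The part of muscle and blood in the other differences was not tested.

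**Figure D4:**
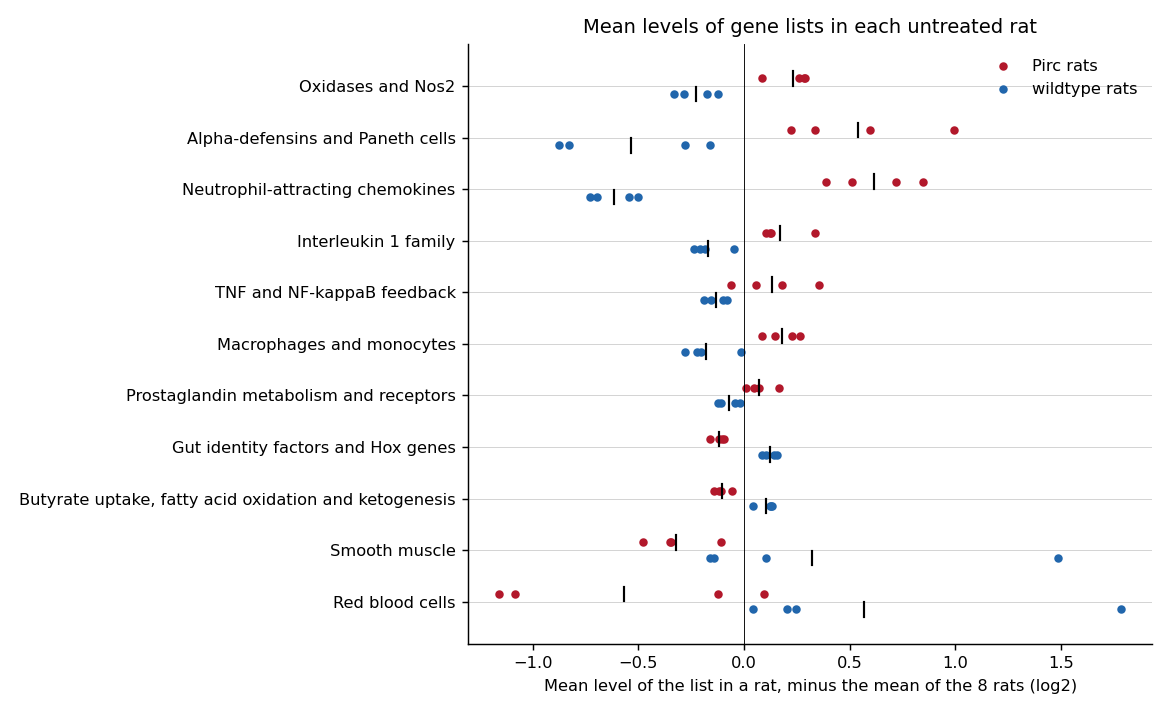
Mean level of the genes of a list in each untreated rat minus the mean of the 8 rats (log2), 1 point a rat, with the mean of 4 rats as a black bar. The upper 9 lists are those in which Pirc rats (red) and wildtype rats (blue) did not overlap, 7 of them higher and 2 lower in Pirc rats. In smooth muscle and red blood cells, wildtype rat 25 lies far to the right.

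The pathway that Apc controls showed small differences. Of 21 measured genes of the Apc and beta-catenin complex, Csnk1d (-0.17) and Bcl9l (-0.32) were lower and Dvl1 (0.29) was higher without overlap, with a median of -0.09, and Ctnnb1 and Axin2 differed by -0.12 and 0.26. Of 20 stem cell and Wnt target genes, Lgr4 (-0.56), Rnf43 (-0.35) and Prom1 (-0.29) were lower and 0 higher, and Lgr5 differed by 0.13 and -0.19 in its 2 probes. Among 32 Wnt ligands, Frizzled receptors and antagonists, Wnt11 (-0.67), Fzd8 (-0.39) and Porcn (-0.22) were lower and Fzd9, below background in every rat, was higher. Cell cycle and DNA replication genes were higher in mean for 23 of 28, with a median of 0.23. Mcm4 (0.72), Mcm7 (0.54) and Tyms (0.73), which act in DNA replication and nucleotide supply, were without overlap and 0 were lower.

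Growth factor and lineage lists were mixed. Of 13 EGF receptor ligands and receptors, Nrg1 (1.24) and Egf (0.54) were higher and Erbb2 (-0.51) lower. Of 34 TGF-beta and BMP genes, Bmp4 (1.08) was higher and Bmpr1a (-0.30), Smad1 (-0.35) and Smad6 (-0.60) lower. Of 24 immediate early genes, Fosl1 was higher and Jund (-0.62) lower. Fosl1, an AP-1 subunit, was at -2.46, -4.89, -3.21 and -4.01 against -5.58, -5.62, -6.68 and -6.74. Goblet cell and mucus genes had 0 of 17 without overlap. Retnlb, a goblet cell protein aimed at bacteria, had the largest mean difference there, -3.04 (SE 1.10), but wildtype rat 13 (-2.67) lay among the Pirc rats (-3.41 to -2.56). Enteroendocrine genes were higher in mean for 20 of 22, and 5 were higher without overlap, among them Gcg (1.0), which encodes the precursor of GLP-1, Scg2 (0.46), Scg3 (0.85) and Pax4 (0.44). Sstr2, a somatostatin receptor, was lower at 0.94, 1.03, 0.86 and 1.04 against 2.60, 2.51, 1.56 and 1.84, and so was Neurog3 (-0.39).

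Of the metabolic and stress lists, the unfolded protein response had genes without overlap in both directions. Of 21 measured genes, 5 were higher without overlap, the chaperones and folding factors Hsp90b1 (0.65), Pdia6 (0.54), Creld2 (0.45), Dnajc3 (0.41) and Pdia4 (0.38). The 2 that were lower, Trib3 (-0.86) and Ddit3 (-0.50), belong to the ATF4 and CHOP arm. No other measured gene of the list separated, of that arm or another. In mean 14 of the 21 were higher, and the median was 0.10. Hsp90b1 was at 1.59, 1.65, 1.81 and 1.83 against 1.04, 1.23, 0.80 and 1.21, and Trib3 at -3.50, -3.33, -4.03 and -3.22 against -2.42, -2.55, -2.59 and -3.09. Glycolysis had Hk2 (0.81) higher and Eno1 (-0.46) and Pfkp (-0.21) lower among 20 genes. Of 21 cholesterol synthesis genes 1 was higher, Insig1 (0.87), and 2 were lower, among them Srebf2 (-0.24). Of 31 carboxylesterases and cytochromes P450, 2 were higher (Ces2j and Cyp2d2) and 1 lower (Cyp27a1), of 32 phase II and efflux genes 0 were higher and 2 lower (Ugt1a6 and Abcg2), and of 15 clock genes 0 separated. Prostaglandin genes had 1 of 18 higher, the cytosolic phospholipase Pla2g4a (0.75), and 1 lower, Ptges2 (-0.38).

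Cyclic nucleotide phosphodiesterases break down cAMP and cGMP, and those of the PDE4 family are specific for cAMP. Pde4b was near the detection limit in this tissue. It was at -7.96, -8.25, -6.94 and -8.39 in Pirc rats and at -8.73, -8.28, -8.75 and -8.27 in wildtype rats, and was well above background in 2 Pirc rats and 0 wildtype rats. The groups overlapped, with a difference of 0.62 (SE 0.33, adjusted p = 0.553, limma). Of 30 measured phosphodiesterase and cAMP signalling genes, Prkaca (-0.34), the catalytic subunit of protein kinase A, and Pde4a (-0.17) were lower without overlap and 0 were higher, with a median of -0.05.

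The same genotype comparison in the DSS-treated rats rests on other animals and was used to see how the chosen probes behaved there. In those rats 2877 of 30367 probes (9.47%) were higher in Pirc rats and 2660 (8.76%) lower at an adjusted p of 0.05 or less. Of the 151 probes without overlap and at least 2-fold higher in untreated Pirc rats, 125 (82.8%) were higher in DSS-treated Pirc rats too, as were 41.3% of all probes. Of these, 53 (35.1% of the 151) passed the adjusted threshold, and 0 passed it in the opposite direction. Of the 73 that were lower, 58 (79.5%) were lower after DSS, as were 58.7% of all probes, 29 (39.7%) passed and 1 passed the other way. The passing probes made up 1.84% of all those higher and 1.09% of all those lower after DSS. Among the chosen probes well above background on all 8 untreated arrays, 24 of 50 and 23 of 45 passed. Array column and genotype were tied together in the DSS-treated rats as well.

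Named genes that passed after DSS included Apc, Pde4b and genes of defence, uptake and the Hox clusters. Apc differed by -0.82 (adjusted p = 0.0033) and Pde4b by 1.46 (adjusted p = 0.00818, limma), both without overlap there. Pla2g2a differed by 4.63 (adjusted p = 2.71e-05), Amn by -4.28 (adjusted p = 0.000311), Duoxa2 by 2.90 (adjusted p = 0.00028) and Mmp7 by 4.52 (adjusted p = 0.000168, limma). Cxcl1 and Cxcl2 differed by 3.93 and 4.19 (adjusted p = 0.00286 and 0.0231), and Hoxd13 by -1.05 (adjusted p = 0.000856, limma). The Cxcl2 groups overlapped after DSS, with wildtype rats 14 and 18 (0.34 and 1.08) above Pirc rat 12 (-0.28). Crip2 (-0.36), Dapl1 (0.09) and Prkch (0.59) did not pass there, nor did Npy (-0.98), Il1b (1.9) or Csta (3.36). The difference between both genotype differences was tested for each probe and passed for 13 of 30367 (0.0428%). Among the chosen probes with a gene name these were Defa6, Tac1 and Tbxt, higher in both comparisons and more so after DSS, and Slc30a2, a zinc transporter, which was lower in untreated (-1.15) and higher in DSS-treated Pirc rats (3.23). For Pla2g2a, Duoxa2, Cxcl2 and Amn that test did not pass (adjusted p from 0.223 to 0.996, limma). Nor did it pass for Apc and Pde4b (adjusted p = 0.199 and 0.542, limma).

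**Figure D5:**
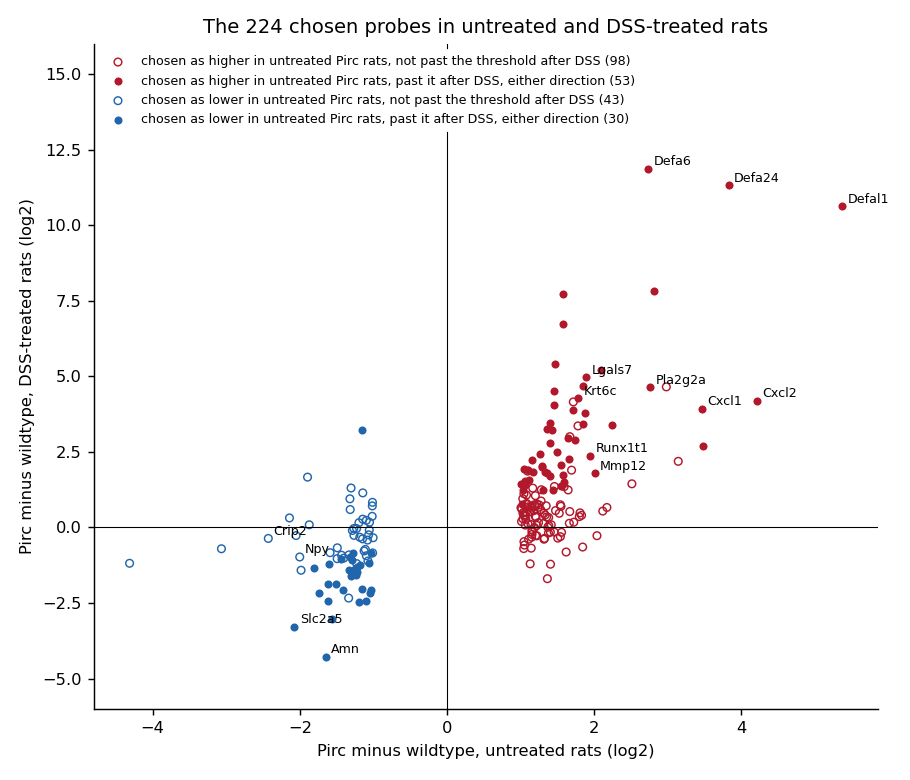
Difference between Pirc and wildtype rats (log2) among DSS-treated rats against that among untreated rats, for the 151 and 73 probes chosen in untreated rats by no overlap and at least a 2-fold difference. Filled points had an adjusted p of 0.05 or less after DSS, and most of them lie in the same direction on both axes. Slc30a2 is the filled blue point above 0.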

How the data were processed

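Total RNA from normal distal colon was hybridised to 16 single-colour arrays, 4 rats a group. Per the file headers, the authors deposited linear spot intensities from which Agilent Feature Extraction 10.7.3.1 had subtracted background, without scaling arrays to each other. The labels name Partek as a processing tool, whose output was not used here. Of 62976 spots on an array, 4259 controls and the outlier-flagged spots were left out, and log2 signals minus the log2 of the array's 75th percentile were averaged over the spots of 30367 probes. Matching accessions to a RefSeq gene table (GRCr8) named 18006 probes with 15159 symbols, and 12361 stayed unnamed. No coordinates of the array design were used. The genome build of the promoters is that of the table.

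A limma 3.58.1 model (R 4.3.3) with a mean for each of the 4 groups was fitted to all 16 arrays, with Benjamini-Hochberg adjustment over all probes. The fit was tested on simulated data with normal noise of the same size in all 4 groups. That test does not cover genes whose spread differs between groups. The SD of Krt6c, for example, was 0.11 in untreated Pirc and 0.31 in untreated wildtype rats. After DSS it was 1.04 and 3.86. Alternatives were other scaling, background correction, filters, spot flags, batch blocks, untreated arrays alone and leaving out each rat. A spot was well above background by the flag of Feature Extraction, and a probe where at least as many of its spots were so as were not. Genes named were Apc and Pde4b, the 12 largest differences each way without overlap and well above background on all 8 untreated arrays, up to 5 detected in 1 genotype only, and up to 4 members of each of 49 gene lists. Other members of a list are given by difference. Some members are not reported here. For lists, 1 probe a gene was taken, the one with the highest mean over all arrays, and 958 of 1076 listed genes were measured. The members, lists and rules were chosen with earlier results of these data known. Nothing says how the rats were assigned to litters or cages. The p-values measure the spread between rats within groups, pooled over all 4 groups with the DSS-treated rats, and not that between the untreated rats alone. For Cxcl2 the SE was 1.17 with all arrays in the fit and 0.21 with the untreated arrays alone.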

Additional observations from a re-analysis of the deposited data

Results flagged for a closer look

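The values of 150 named genes were examined in each untreated group of 4 rats, 300 groups in all, for a rat whose gap to its nearest neighbour was too large a part of the group's range by Dixon's 95% critical value. Such a rat was found in 14 groups, and chance alone flags about 1 in 20, or about 15 of 300. In Pirc rats these were rat 23 for S100a9 (level 0.41) and Ugt1a6 (5.07), rat 11 for Nfkb2 (0.85) and Prdm1 (-3.45), rat 19 for Fap (-6.74) and Pla2g4a (-3.72), and rat 15 for Tac1 (-5.09) and Myh7 (-6.90). In wildtype rats these were rat 21 for Apc (-2.94) and Sprr3 (-5.30), rat 13 for Ccl20 (-1.51), rat 25 for Tlr2 (-1.87) and Acta2 (-1.34), and rat 17 for Tpsab1 (-5.45).

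The genotype difference after DSS exceeded that in untreated rats, by the test of the difference itself in limma, for 3 of the named genes. It was larger by 9.13 (log2, SE 1.32) for Defa6, by 6.16 for Tac1 and by 2.57 for Tifa.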

How the results depend on the processing

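No probe passed with a block for slide, array row or both together (array position, an alternative chosen after seeing the data), quantile normalization or a filter on dim probes. Probes past the adjusted threshold with at least a 2-fold difference numbered 3 when only untreated arrays were fitted, 2 under normexp and 57 at an adjusted p of 0.20, and 0 to 1 when 1 rat was left out. At any size they numbered 3, 17 and 121 in the same order, 7 with a common floor, 3 without moderation, and 0 to 1 when 1 rat was left out (1 without wildtype rat 13).

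Averaging the probes of a gene gave 745 higher and 732 lower without overlap, and 73 and 42 at 2-fold or more. Normexp gave 23 and 24 at 2-fold or more, a common floor 59 and 48, and the filter on dim probes 88 higher. Leaving out 1 rat, which leaves fewer rats to overlap, gave 1665 to 2499 higher and 1406 to 3068 lower, and 161 to 261 and 79 to 185 at 2-fold or more. Rats 11, 13, 23 and 25 each moved at least one of these counts by over 1.5 times.

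The share of chosen probes that passed after DSS was 60.9% (higher) and 62.5% (lower) under normexp. With 1 rat left out it ran from 23.4% (without Pirc rat 19) to 35.5% and from 20% (without Pirc rat 23) to 40.5%. The Apc difference was -0.0042 with scaling to the median, -0.0407 under normexp and between -0.0249 and 0.1276 with 1 rat left out. Of 637 list medians recomputed under alternatives 593 moved by less than the spread between rats, and of 587 differences of named genes 576 kept their direction and side of the threshold. The causes were not tested. The labels pair no rats, and the array position block, with 1 rat of each group at each position, gave 3150 probes at an unadjusted p under 0.05. Signal over background limits the sizes: under normexp differences were smaller for undetected probes and also for Defa6 (1.34), Lgals7 (0.72), Il1b (0.69) and Fgf9 (-0.81).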
